A study of Mus musculus with 2 samples.

Results

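Transcript assembly from RNA-seq reads gives loci wherever reads pile up, also where no gene is annotated. The loci described here are those assembled from mouse bone marrow cultures that share no base with a gene of the GENCODE vM21 annotation on either strand, with the mitochondrial chromosome left out. They numbered 1052 of 19422 assembled loci in the library grown in M-CSF (M) and 895 of 19922 in the library grown in M-CSF plus RANKL (MR). Loci of both libraries were joined into a group when they shared at least 1 base and their strands were equal or missing, which gave 1603 groups. Of these, 720 were found in M alone, 566 in MR alone and 317 in both. The members were thus chosen from the assembled values themselves, so that these counts are a description.

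Both libraries came from bone marrow cells of wild-type (WT) mice, 1 library per condition. M-CSF keeps macrophage precursors alive and dividing, and RANKL turns them into osteoclasts, the multinucleated cells that resorb bone. According to the labels, the cells of both libraries were first cultured for 2 days with M-CSF. The treatment of M was M-CSF, and that of MR was M-CSF and RANKL for the next 2 days. The culture method of the study gives a longer time with RANKL, and it does not name the harvest day of these libraries. The label of M does not state its own harvest day, and neither the sex nor the age of the mice is given. The cultures were not sorted, so that fewer cells of a type and less RNA per cell cannot be told apart. With 1 library in each condition there was no replicate check on any value below, and no test was run.

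Transcription outside annotated genes has several known sources. Polymerases can run past the end of a gene, promoters often also start transcripts in the opposite direction, active enhancers are transcribed, and the long precursors of microRNAs and long non-coding RNAs (lncRNAs) may be missing from an annotation. Reads of repeated sequence or of processed pseudogenes, which are copies of mRNAs inserted elsewhere in the genome, can also be placed there by an aligner. A table of loci does not tell these sources apart.

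The libraries matched their labels. The summed level of 7 osteoclast markers was 121 TPM (a transcript level corrected for length and depth) in M and 24633 TPM in MR, and 3 of the 7, Oscar, Dcstamp and Calcr, were listed at 0 in M. The 7 macrophage markers summed to 20294 TPM in M and 7902 TPM in MR, with none at 0. Most of this sum was Lyz2, at 16035 TPM in M and 4535 TPM in MR. Csf1r was higher in MR, at 697 TPM in M and 872 TPM in MR, and the rest were lower to differing degrees, with Cd68 at 2607 TPM and 2171 TPM. Neutrophil markers, 7 in number, summed to 1362 TPM in M and 950 TPM in MR. The 2 T cell markers were listed at 0 in both libraries, and the B cell, erythroid, stromal, mast cell and dendritic markers summed to at most 18.3 TPM in either library. The part of these other cells in the loci was not tested. M was the deeper library, with 3.63 Gb of aligned bases against 2.98 Gb for MR by the ratio of coverage to FPKM, and the part of depth in the number of loci was not tested. A gene to which no locus was given in a library is listed at 0 there. This can also happen where a locus that covers the gene was given to a neighbouring gene, so that a listed 0 does not show absence.

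Sequences are shown for loci with a known RNA start inside them, for a locus that overlaps the promoter window of an osteoclast gene, and for loci beside a microRNA gene. A RefSeq start on a compatible strand lay inside 47 groups. The windows below have 300 bases and end 50 bases after such a start. They are taken from RefSeq on GRCm38.p6, the same build as mm10, and are given in the direction of the RNA. Capitals mark the letters TATAAA, the only one of 3 searched motifs that occurred in these windows. The search took no account of the distance to the start, so that a match is not called a TATA box. The window of the lncRNA Gm46162 (chr1:151250491-151250790, minus strand) belongs to a locus with a higher level in MR. Those of the lncRNAs Gm41046 (chr13:102665952-102666251, minus strand) and Gm34181 (chr2:144337194-144337493, plus strand) belong to loci with a lower level in MR. The window of Plekhm1 (chr11:103412656-103412955, minus strand), a gene needed for the ruffled border of osteoclasts, overlaps a locus on the opposite strand that was assembled in MR alone.
Gm46162: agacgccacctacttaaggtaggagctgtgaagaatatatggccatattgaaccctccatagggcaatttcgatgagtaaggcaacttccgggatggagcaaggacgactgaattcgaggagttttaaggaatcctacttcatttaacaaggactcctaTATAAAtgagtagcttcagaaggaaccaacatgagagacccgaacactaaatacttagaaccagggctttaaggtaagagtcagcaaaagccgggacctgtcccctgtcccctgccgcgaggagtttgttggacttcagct
Gm41046: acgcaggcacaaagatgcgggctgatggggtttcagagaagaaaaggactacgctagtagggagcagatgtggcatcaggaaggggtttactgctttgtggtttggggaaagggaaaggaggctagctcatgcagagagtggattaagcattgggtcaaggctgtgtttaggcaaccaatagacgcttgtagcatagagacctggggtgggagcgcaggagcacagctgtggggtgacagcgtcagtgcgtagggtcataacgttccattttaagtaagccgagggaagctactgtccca
Gm34181: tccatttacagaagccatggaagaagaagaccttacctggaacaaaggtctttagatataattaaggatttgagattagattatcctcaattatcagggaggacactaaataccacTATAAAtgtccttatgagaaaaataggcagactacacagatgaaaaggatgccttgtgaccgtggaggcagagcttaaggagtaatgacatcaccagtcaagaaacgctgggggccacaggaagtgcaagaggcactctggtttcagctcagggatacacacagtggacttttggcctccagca
Plekhm1: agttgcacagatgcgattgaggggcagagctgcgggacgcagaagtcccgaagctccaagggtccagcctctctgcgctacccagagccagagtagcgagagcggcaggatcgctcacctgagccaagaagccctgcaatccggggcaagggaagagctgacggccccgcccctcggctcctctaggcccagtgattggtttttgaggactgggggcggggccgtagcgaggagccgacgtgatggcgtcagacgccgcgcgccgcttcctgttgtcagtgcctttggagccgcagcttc

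The locus of Gm46162 began 390 bases before the RefSeq start and that of Gm34181 8 bases before it. The Gm41046 locus extended 17019 bases beyond the RefSeq start, so that this start lay in its interior. The locus at Plekhm1 ran away from the gene, and its end next to the gene lay 98 bases from the RefSeq start of Plekhm1. Over all 155 RefSeq promoter windows that overlapped one of the loci, TATAAA was found in 14 (9.03%, against 13.6% of all 32851 windows), the AP-1 motif TGANTCA in 9 (5.81%, against 7.81%) and the PU.1 motif GAGGAAGT in 6 (3.87%, against 3.20%). Both strands were searched, and none of the 3 motifs contains another. AP-1 and PU.1 are transcription factors of the osteoclast and macrophage lineages, and a match is not a binding site.

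No locus contained a microRNA hairpin, which is largely set by the choice of loci, since vM21 lists microRNAs such as Mir221 as genes. Of the loci with a TPM of at least 1 within 5 kb of a hairpin, those at Mir221 and Mir146 are shown, chosen after their values were seen. Capitals mark the seed, bases 2 to 8 of the mature microRNA, which pairs with target mRNAs, and the sequences are from RefSeq. The first pair shares its seed, GCUACAU.
mmu-miR-221-3p: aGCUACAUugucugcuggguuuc
mmu-miR-222-3p: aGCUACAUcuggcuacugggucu
mmu-miR-146a-5p: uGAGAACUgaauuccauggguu

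A locus of 882 bases without strand (chrX:19145406-19146287) ended 7 bases from the hairpin of Mir221 and 606 bases from that of Mir222, and had 8.52 TPM in MR and no counterpart in M. A locus of 820 bases (chr11:43373037-43373856) lay 541 bases from the hairpin of Mir146, whose product restrains NF-κB signalling, and had 3.69 TPM in MR and no counterpart in M. The mature microRNAs themselves were not measured.

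The loci outside genes took a small share of the RNA, and a few of them held most of it. Their summed level was 6426 TPM in M and 7529 TPM in MR, which is 0.643% and 0.753% of all assembled TPM. The 5 highest loci held 50.8% of this sum in M and 48.6% in MR. The median locus had 0.768 TPM in M and 0.774 TPM in MR, against 7.07 TPM for loci on genes in M. A TPM of at least 1 was reached by 451 loci in M and 418 in MR, and a TPM of at least 100 by 10 and 13. A coverage of 1, which is 1 read per base on average, corresponded to 0.595 TPM in M and 0.754 TPM in MR, so that the median locus rested on about 1 read per base.

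The loci were also short. Their median span was 1480 bases in M and 1418 bases in MR, with a range from 10 to 74393 bases in M and from 10 to 114314 bases in MR. The plus strand was given to 469 loci in M and 415 in MR, the minus strand to 483 and 400, and no strand to 100 (9.51%) and 80 (8.94%). The library kit does not mark strand, so that a strand came from spliced reads or from a reference transcript. The loci without a strand had a median span of 402 bases in M and 323 bases in MR and yet held 56.9% and 59.5% of the TPM.

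The deposited tables also list reference transcripts with gene names, placed by the vM27 annotation, whose positions refer to the next build, GRCm39. Such an entry lies at the wrong place for reads aligned to mm10, and assembled loci can take over its ends. Of the loci outside genes, 335 in M (31.8%) and 266 in MR (29.7%) began and ended exactly where such an entry does. They were faint, with a median of 0.112 TPM in M and 0.161 TPM in MR, and 83.6% and 80.8% of them had a coverage under 1. For 313 of the 335 in M and 235 of the 266 in MR, vM21 places a gene of the same identifier on the same chromosome, at a median offset of 133071 and 122801 bases from the locus. Together they held 4.73% of the TPM of the loci outside genes in M and 6.74% in MR. In contrast, the 304 loci in M and 257 in MR that touched no such entry held 77.4% and 67.4%, and 1 and 5 of them had a coverage under 1. The gene name of such an entry is given below only as that of the entry, and not as that of the locus.

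**Figure D1:**
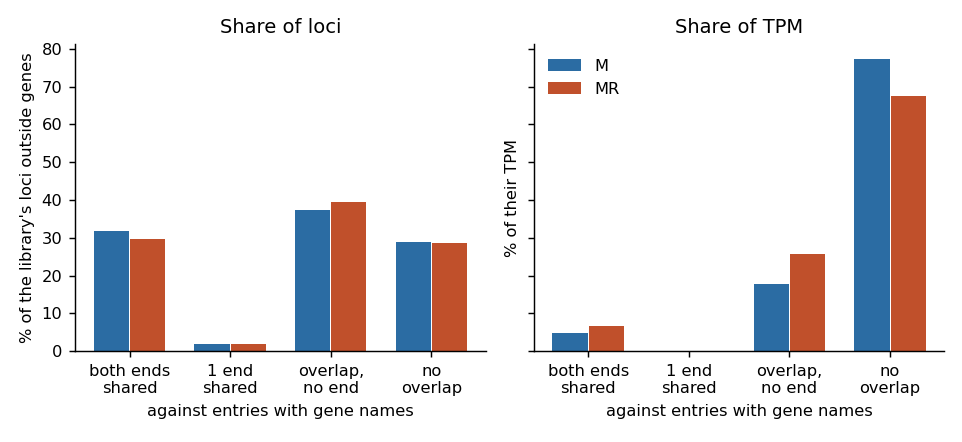
Loci outside annotated genes by their relation to the positions of entries with gene names, as a percentage of the loci (left) and of their TPM (right) in M (blue) and MR (orange). Loci with both ends of an entry make up 31.8% and 29.7% of the loci and 4.73% and 6.74% of the TPM.

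Most loci outside genes were assembled in 1 library alone. Groups in M alone made up 44.9% of the 1603, those in MR alone 35.3% and those in both 19.8%. Over all 21370 groups of assembled loci, on genes or not, the shares were 16.3, 18.2 and 65.5%. Of the groups counted as alone, 27 in M and 31 in MR overlapped a locus in the other library that reached into a gene.

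Absence from the other library carried information mainly at high levels. In M, 27.6% of the loci with 1 to 2 TPM overlapped any locus of MR, against 65.3% of loci on genes at that level. At 10 TPM or more this was 87.8% of 49 loci, against 98.6% on genes. In MR, the share with a counterpart in M was 40.8% at 1 to 2 TPM and 78.6% of 56 loci at 10 TPM or more, where loci on genes reached 97.9%. Loci outside genes thus had fewer counterparts than loci on genes in every class of level in both libraries. Loci on genes were also longer, with a median span of 9132 bases in M against 1480 bases outside genes. A counterpart needs only 1 shared base, and the highest class has no upper limit. The part of span and of level within a class was not tested. Of the groups in M alone, 281 reached 1 TPM and 8 reached 10 TPM, and of those in MR alone 241 and 13.

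**Figure D2:**
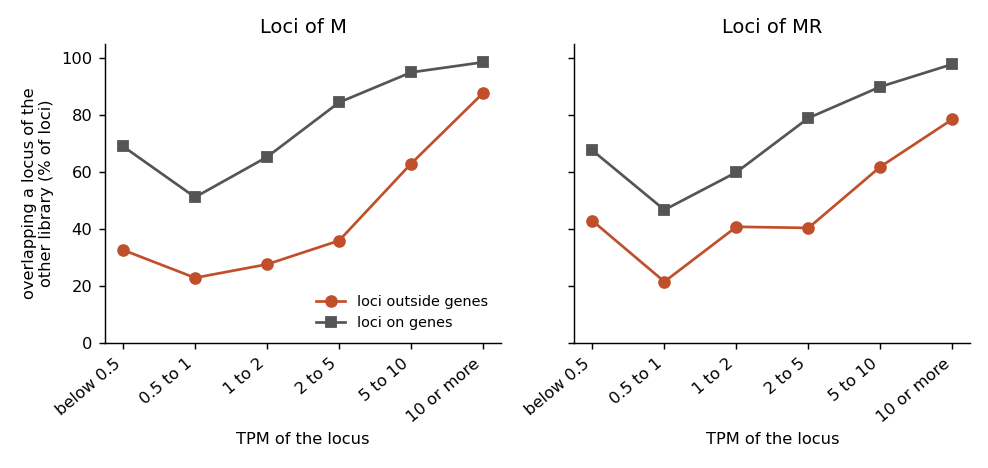
Percentage of loci that overlap a locus of the other library on a compatible strand, by TPM of the locus, for loci of M (left) and MR (right), outside genes (orange circles) and on genes (grey squares). The orange points lie below the grey ones in all 6 classes, at 87.8% against 98.6% in the highest class of M and 78.6% against 97.9% in that of MR.

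Positions were the same where a group consisted of 1 locus from each library and both had the ends of an entry, as in 108 of 297 such groups. The other 189 had a median of 92.0% of the longer locus in common, and 40 had identical ends.

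In all, 714 groups reached 1 TPM in M, in MR or in both. Of these, 262 (36.7%) had a log2 ratio of MR to M above 1 and 309 (43.3%) one below -1, after adding 1 to each TPM. The background over all assembled groups at this level was 23.9% above and 17.1% below. Most of these calls came from loci found in 1 library, where a TPM of at least 1 against 0 passes the threshold with this pseudocount, so that all 281 groups in M alone and 241 in MR alone at this level were called by construction and nothing is read from their share. Of the 192 groups found in both, 21 (10.9%, background 14.1%) lay above 1 and 28 (14.6%, background 9.34%) below -1, and their median log2 ratio was 0.01, against 0.16 over the 13240 assembled groups found in both.

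**Figure D3:**
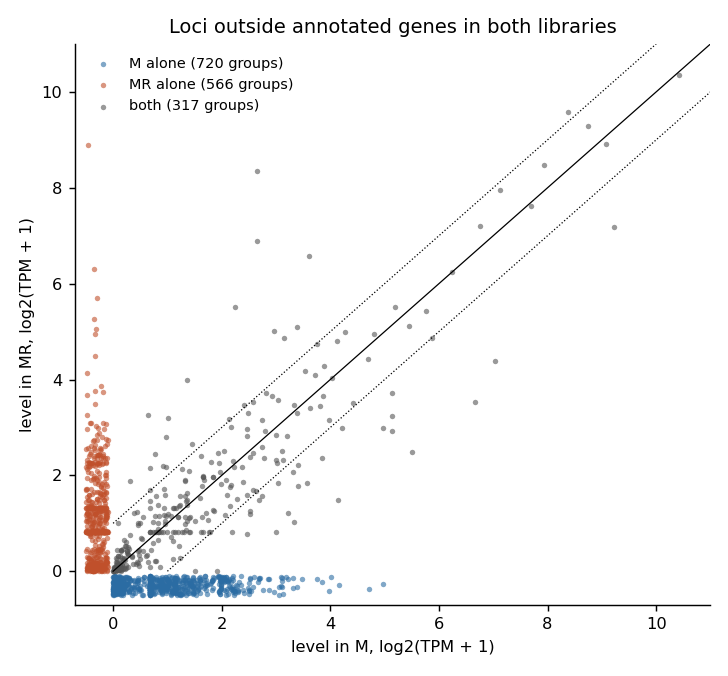
Level of each of the 1603 groups in M (x axis) and MR (y axis) as log2(TPM + 1), with dotted lines at a log2 ratio of 1 and -1. Groups found in both libraries (grey, 317) lie along the diagonal, and those in M alone (blue, 720) and MR alone (orange, 566) are spread just outside the axis at 0.

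On chromosomes 1 to 19, X and Y, the highest groups found in both libraries were 2 short loci without strand and 1 locus beside a macrophage gene. A locus of 436 bases (chr3:5860338-5860773), 20059 bases from the nearest gene, had 1368 TPM in M and 1312 TPM in MR. One of 435 bases (chr6:3201149-3201583) had 331 TPM in M and 763 TPM in MR. Their log2 ratios were -0.06 and 1.20. The third locus, 1172 bases on the plus strand (chr2:131067801-131068972), had 599 TPM in M and 144 TPM in MR. It lay 248 bases past the end of Siglec1, a sialic acid receptor of macrophages, on the opposite strand, and inside the longer RefSeq model of Siglec1. The Siglec1 gene itself stood at 626 TPM in M and 139 TPM in MR, so that the gene and the locus beside it were both lower in MR, with log2 ratios of -2.16 and -2.05.

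Among the loci found in both on these chromosomes, the 5 with the highest ratio in MR included 2 that overlap a lncRNA of RefSeq. The locus of Gm46162 (chr1:151240187-151250930), whose promoter window is shown above, had 11.1 TPM in M and 95.1 TPM in MR. A group on chromosome 18 that overlaps the lncRNA Gm41800, of 2 loci in each library, had 5.24 TPM in M and 118 TPM in MR. The highest ratio belonged to a locus of 609 bases (chr16:32410119-32410727) with 5.31 TPM in M and 326 TPM in MR, a log2 ratio of 5.70, which overlaps a RefSeq pseudogene, Gm20056, and has the ends of an entry. A locus of 5760 bases in the T cell receptor beta region (chr6:41196341-41202100), which has the ends of a Trbv25 entry, had 1.57 TPM in M and 14.9 TPM in MR, while the T cell markers Cd3e and Cd3d were at 0 in both. The fifth, at the pseudogene Gm5920 (chr9:98868454-98872715), had 3.72 TPM in M and 44.9 TPM in MR. Its listed coverage stands for 3.72 TPM in M and 5.19 TPM in MR, a log2 ratio of 0.39, so that the rise in TPM is not seen in the coverage. For Gm46162 the coverage gave a log2 ratio of 2.77, close to the 2.99 of its TPM. Its coverage stands for 6.16 TPM in M and 47.9 TPM in MR, 55.3% and 50.4% of the TPM given, so that its levels are uncertain.

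The 5 with the lowest ratio included 2 beside genes of the innate immune response. The locus of the lncRNA Gm41046 (chr13:102655402-102683020) had 16.5 TPM in M and 1.79 TPM in MR, a log2 ratio of -2.65, or -1.55 by its coverage. Its nearest gene, 10538 bases away, is Cd180, a receptor related to the Toll-like receptors, with 736 TPM in M and 61.9 TPM in MR. A locus of 48 bases on chromosome 14 (chr14:103043535-103043582) had 9.01 TPM in M and 1.05 TPM in MR. It has the ends of a 5S_rRNA entry and lies 3395 bases before Acod1, the enzyme that makes itaconate in activated macrophages, which had 369 TPM in M and 33.1 TPM in MR. A locus of 1289 bases next to it (chr14:103042192-103043480) had 7.66 TPM in M and no counterpart in MR. Of the other three, a group on chromosome 4 (chr4:133095958-133101556) had 99.9 TPM in M and 10.5 TPM in MR, a locus on chromosome 19 (chr19:8019569-8034082) had 130 TPM and 19.8 TPM, a log2 ratio of -2.65, or -1.88 by its coverage, and a group of loci on chromosome Y at the pseudogene Mid1-ps1 had 44.1 TPM and 4.60 TPM. For the last the coverage, summed over its loci, stands for 3.72 TPM in M and 3.96 TPM in MR, a log2 ratio of 0.07, so that the fall in TPM is not seen in the coverage. It also touched a locus of the other library that reached into a gene. The locus of Gm34181 (chr2:144337436-144345716), named for its promoter window and not by its ratio, had 34.3 TPM in M and 6.61 TPM in MR.

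Of the 8 highest loci found in M alone on chromosomes 1 to 19, X and Y, 3 lay within 5 kb of a protein-coding gene that was itself much higher in M. A locus of 4570 bases on the same strand (chr5:149288954-149293523), 801 bases past the end of Alox5ap, a protein needed for leukotriene synthesis, had 14.7 TPM, and Alox5ap had 542 TPM in M and 158 TPM in MR. A locus of 66 bases 998 bases past the end of Aif1, an actin-binding protein of macrophages, had 16.9 TPM, with Aif1 at 756 TPM in M and 120 TPM in MR. It has the ends of a Snord52 entry and touched a locus on a gene in MR. A locus of 4244 bases (chr3:95520173-95524416) on the opposite strand, 2370 bases before Ctss, a lysosomal protease, had 9.43 TPM, with Ctss at 6604 TPM in M and 1931 TPM in MR. The highest of the 8 was a locus of 7567 bases near the histone gene Hist1h4m, with 25.1 TPM, which touched a locus on a gene in MR. The other four had 10.2 to 15.1 TPM, and 3 of them had at most 324 bases and no strand.

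On the same chromosomes, the highest locus in MR alone was listed at 472 TPM (chr19:4061381-4066297), 1812 bases before Gstp3 and on the opposite strand. Its coverage stands for 73.7 TPM, 15.6% of the TPM given, so that its level is uncertain. A locus of 386 bases (chr17:47411289-47411674) inside the RefSeq models of Guca1a and a pseudogene had 77.8 TPM. A locus that overlaps the RefSeq lncRNA Gm39608 (chr11:20894620-20898720) had 50.9 TPM, and one that overlaps the lncRNA Gm42252 had 21.6 TPM. The overlap with RefSeq genes was taken on either strand. A locus of 36017 bases with 16.5 TPM (chr10:118561798-118597814) lay on the opposite strand 5273 bases from Ifngas1, a lncRNA of the interferon gamma region that itself had 5.69 TPM in MR and no locus in M. Of the other three, all without strand and of at most 348 bases, 1 lay 6083 bases before Oasl2, an interferon-induced gene with 501 TPM in M and 264 TPM in MR. It had 37.3 TPM, so that this locus was found in MR alone while the gene was higher in M.

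The position of the loci was described against the nearest gene, without an expected distance for comparison. The median distance to the nearest gene was 5507 bases over 1601 groups with a gene on their sequence. It was below 1 kb for 293 groups, 1 to 5 kb for 453, 5 to 50 kb for 758 and over 50 kb for 97. Upstream and downstream positions were near equal, with 787 and 814 groups. Within 1 kb upstream, 99 groups had the strand opposite to the gene and 56 the same strand. Within 1 kb downstream, 49 were opposite and 53 the same. These counts include the loci with both ends of an entry with a gene name, whose position and strand may be those of the misplaced entry. Their part in the counts was not tested. Groups on the opposite strand just upstream, where divergent transcripts of a promoter lie, had a median of 1.26 TPM in their higher library. Over all groups it was 0.770 TPM. The nearest gene had a level of its own for 84 of the 99, against 51.4% of all groups. The comparison was with groups at all distances, and the 56 groups on the same strand were not set beside these values. The part of divergent transcription was not tested. Groups on the same strand within 5 kb past a gene, where read-through lies, numbered 164, and their median was 0.754 TPM. At the threshold itself, the members nearest to a gene lay 4 to 18 bases from it, and the assembled loci just left out shared 2 to 9 bases with a gene.

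**Figure D4:**
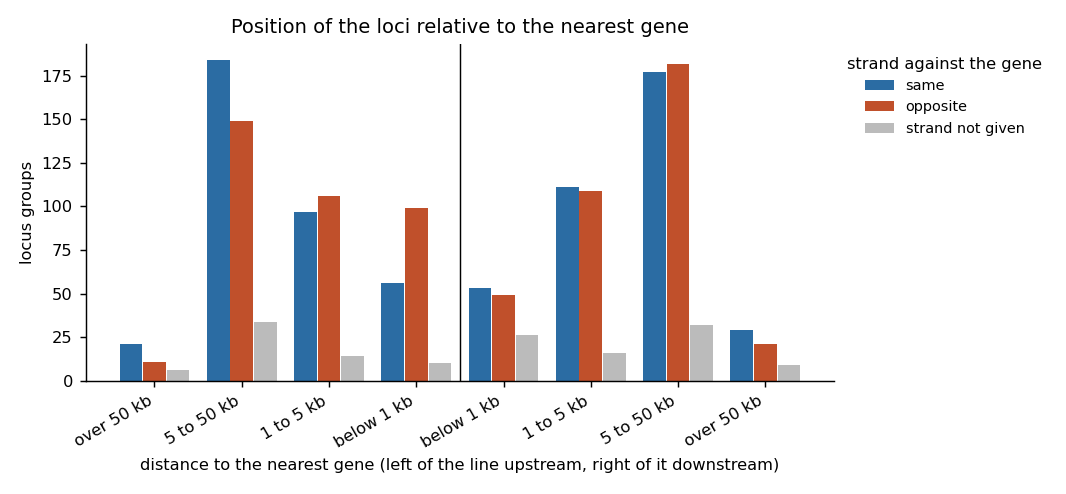
Number of locus groups by distance to the nearest gene, upstream (left of the line) and downstream (right), on the same strand as the gene (blue), the opposite strand (orange) or without strand (grey). Below 1 kb upstream, 99 groups are on the opposite strand and 56 on the same strand, whereas downstream the counts are 49 and 53. Loci with both ends of an entry with a gene name are included.

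The nearest gene tended to be higher in the library in which the locus was found. This was read over protein-coding genes within 50 kb with a TPM of at least 1, beside groups with a TPM of at least 1. Beside 134 groups found in M alone, the gene had a log2 ratio below -1 in 34 (25.4%) and above 1 in 14 (10.4%). Beside 102 groups found in MR alone, it was below -1 in 8 (7.84%) and above 1 in 32 (31.4%). Over all 12130 protein-coding genes at this level the background was 12% below and 19.5% above. The median log2 ratio of the nearest gene was -0.28 for M alone, 0.15 for the 87 groups found in both and 0.44 for MR alone, against 0.19 over all protein-coding genes. The ranges between the quartiles overlapped widely, from -1.0 to 0.48 for M alone and from -0.15 to 1.23 for MR alone. The nearest genes had a median of 23.1 TPM in M and 19.4 TPM in MR beside groups in M alone. Beside groups in MR alone it was 20.1 TPM and 38.8 TPM. No median over all protein-coding genes was set beside these values. How far the level of a gene sets the level of reads around it was not tested. A gene can lack a level in 1 library because its locus was given to a neighbouring gene, and the part of this in the ratios was not tested.

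**Figure D5:**
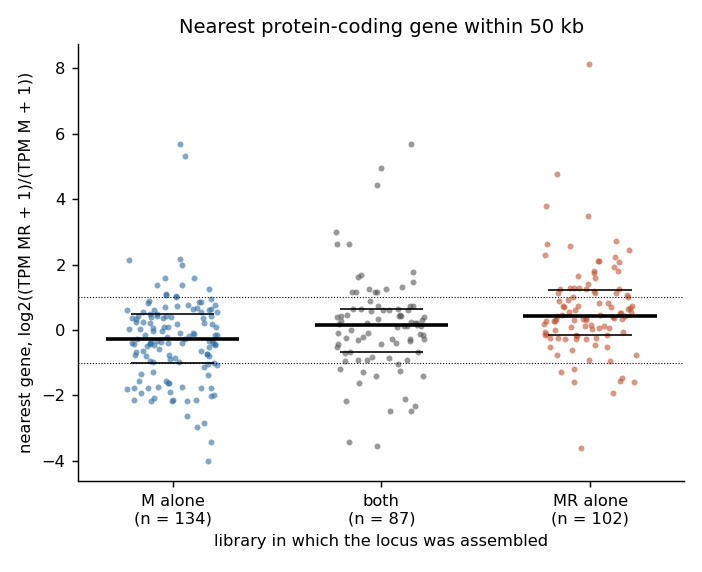
Log2 ratio of MR to M of the nearest protein-coding gene within 50 kb, 1 point per locus group with a TPM of at least 1, by the library in which the group was found. Thick lines mark the median (-0.28, 0.15 and 0.44), thin lines the quartiles, and dotted lines a ratio of 1 and -1.

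The 34 pairs of a locus in M alone and a gene lower in MR, named here after their values were seen, included chemokines, interferon-induced genes and lysosomal proteases. The chemokine Ccl5 had 2135 TPM in M and 130 TPM in MR, with a locus of 2.28 TPM 1981 bases upstream. Ccl4, another chemokine, had 255 TPM and 34.6 TPM, with a locus of 3.36 TPM 3233 bases upstream that lies inside the longer RefSeq model of Ccl4. Rsad2, which makes an antiviral nucleotide, had 1039 TPM and 235 TPM, with a locus of 4.80 TPM on the opposite strand. Cd93, a surface receptor of myeloid cells, had 179 TPM and 39.3 TPM, with a locus of 2.51 TPM 1886 bases past its end on the same strand. Ctss and Ctsd, both lysosomal proteases, each had 2 such loci. Ctsd stood at 10515 TPM in M and 3130 TPM in MR, from an assembled locus that it shares with another gene, and its loci upstream on the opposite strand had 2.22 and 2.19 TPM. In each of these pairs the locus was far fainter than the gene.

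The 32 pairs of a locus in MR alone and a gene higher in MR, also named after their values were seen, included receptors and an inhibitor of NF-κB signalling. The cell fusion gene Dcstamp was listed at 0 in M and had 280 TPM in MR. Tgfbr1, a receptor of TGF-β, had 28.7 TPM in M and 173 TPM in MR, with a locus of 3.66 TPM 6630 bases upstream. Nfkbia, the inhibitor that holds NF-κB in the cytoplasm, had 91.8 TPM and 432 TPM, with a locus of 1.51 TPM 1931 bases past its end on the same strand. Lpcat1, an enzyme that remodels membrane phospholipids, had 11.7 TPM and 174 TPM, with a locus of 1.09 TPM 26456 bases upstream. P2rx5, an ATP-gated channel, was listed at 0 in M and had 26.3 TPM in MR, with a locus of 4.11 TPM inside its longer RefSeq model. Nfam1, an adaptor that signals through an ITAM motif, had 79.9 TPM and 215 TPM, with a locus of 4.17 TPM 164 bases upstream on the opposite strand. The coverage listed for the loci at Tgfbr1 and Nfam1 was below 1, and that for the locus at Dcstamp was 0. In MR a coverage of 1 stands for less than 1 TPM, so that by coverage these loci miss the minimum level used here.

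Some pairs went the other way. Among the 8 pairs of a locus in MR alone and a gene lower in MR was Scimp, an adaptor of antigen-presenting cells, with 35.4 TPM in M and 1.99 TPM in MR beside a locus of 12.6 TPM on the same strand 1499 bases past its end. Gpnmb and Plin2 were also among them, at 6060 and 1060 TPM in M and 2665 and 381 TPM in MR. Among the 14 pairs of a locus in M alone and a gene higher in MR were Rin3 at 20.6 TPM in M and 96.2 TPM in MR, Spred1 at 39.3 and 175 TPM, and Asns at 18.7 and 76.5 TPM.

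The few loci next to listed genes of osteoclast function were found in MR alone. Of 34 genes on an osteoclast list, 7 were the nearest gene of a locus within 50 kb, 1 each. These were Dcstamp, Mitf, Plekhm1, Traf6, Prdm1, Mmp9 and Atp6v0d2, and all 7 loci were in MR alone and upstream of the gene. Since 35.3% of all groups were in MR alone, the 7 of 7 are given with this background and without a test, and the list was fixed with results of these libraries known. The levels were low, from 0.754 to 1.73 TPM, and 3 of the 7 had exactly a coverage of 1. All but the locus at Plekhm1 overlapped an entry with a gene name, whose position is not that of mm10. Of the loci of MR with 0.5 to 1 TPM, only 21.5% overlapped any locus of M, so that absence from M says little at this level.

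The locus 4410 bases before Dcstamp, of 2462 bases on the same strand (chr15:39739059-39741520), had 1.73 TPM, with a listed coverage of 0. The locus 3283 bases before Mitf, a transcription factor of osteoclasts and macrophages, had 1.51 TPM on the opposite strand, and Mitf had 30.5 TPM in M and 39.9 TPM in MR. The locus at Plekhm1 (chr11:103412803-103413773) had 1.37 TPM, and Plekhm1 had 118 TPM in M and 150 TPM in MR. Mitf and Plekhm1 thus changed by 0.38 and 0.34 on the log2 scale, while their loci were seen in MR alone. Traf6, the adaptor that carries the RANK signal, had 12.3 TPM in M and 32.7 TPM in MR beside a locus of 0.989 TPM. Mmp9, a matrix protease, had 11.4 TPM and 5159 TPM, Atp6v0d2, a proton pump subunit, had 4.25 TPM and 965 TPM, and Prdm1, a repressor, had 3.96 TPM and 82.7 TPM, each beside a locus of 0.754 TPM.

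Of 20 genes on a macrophage list, 3 had 4 loci. Those near Cd14, the lipopolysaccharide co-receptor, and Ccr2, a chemokine receptor, were in M alone at 1.19 and 1.89 TPM. Cd14 had 55.1 TPM in M and 29.7 TPM in MR, and Ccr2 60.4 TPM and 16.8 TPM. The 2 loci near Msr1, a scavenger receptor with 181 TPM in M and 52.4 TPM in MR, were in MR alone at 0.754 and 0.228 TPM. Of 24 inflammatory and interferon genes, 5 had a locus, 1 in M alone, 2 in MR alone and 2 in both. The locus 536 bases past the end of Oas1a, an interferon-induced antiviral enzyme, had 3.23 TPM in M and 2.72 TPM in MR, with Oas1a at 611 TPM and 823 TPM. These levels of Oas1a come from an assembled locus that it shares with another gene.

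Part of the loci overlapped genes of a second annotation. Overlap meant at least 1 base shared with the span of the gene on either strand, so that it does not assign a locus to the gene. RefSeq genes on the same build overlapped 555 groups (34.6%), among them 370 that touched a lncRNA, 141 a protein-coding gene and 43 a pseudogene. Of the 74 groups that reached 10 TPM, 35 touched a RefSeq gene. RefSeq genes touched 32.4% of groups in M alone, 34.1% in MR alone and 40.7% in both. Without a RefSeq gene and without an entry at their position, 280 groups remained, of which 190 reached 1 TPM, 83 of them in M alone, 69 in MR alone and 38 in both.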

How the data were processed

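RNA from 1 culture with M-CSF (M) and 1 with M-CSF and RANKL (MR) was sequenced as paired reads from a kit that does not mark strand. The authors trimmed the reads (Trim Galore), aligned them to mm10 (HISAT2) and assembled and quantified loci with StringTie on GENCODE vM27. The deposited tables give each locus a coverage signal per base, not normalized for depth, an FPKM, and a TPM score that the authors scaled so that assembled loci alone share a fixed total, entries with gene names being listed in addition. Read counts are not listed, so that no counting interval was given.

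Assembled loci outside chrM that overlap no GENCODE vM21 gene body were kept and matched between libraries by at least 1 shared base and equal or missing strand, and TPM was summed over a group. The log2 ratio used a pseudocount of 1 and a TPM of at least 1 in 1 library. Each assembled locus was given to 1 gene, the one with the most exon bases inside it, with at least 50 required. The level of a gene was the summed TPM of the loci given to it. Other genes inside the same locus received nothing from it. Named loci were the 8 highest in each library alone, the 5 largest rises and falls and 3 highest in both, the 3 longest, and loci within 50 kb of osteoclast genes, all on chromosomes 1 to 19, X and Y, others being named as chosen after values were seen. Members, lists and alternatives were chosen with earlier results of these data known. Membership, matching, distances and calls were tested on simulated data. The scripts ran in Python 3.11.15 (pandas 2.3.3, numpy 2.4.6, scipy 1.17.1, matplotlib 3.10.9). GC content, repeat content, poly(A) signals and likeness to annotated transcripts were planned and not analysed here, because no genome sequence was used here.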

Additional observations from a re-analysis of the deposited data

How the results depend on the processing

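Of 115 values under alternatives, 88 stayed within 1.5 times of the main count or share, or within the 95% order-statistic interval of a median (Wilson interval for the share with a strand), 27 moved and 0 reversed. With members of at least 1 TPM, 451 members remained in M and 418 in MR, with 303 groups in M alone, 270 in MR alone and 141 in both, a median span of 2015 and 1679 bases, and a strand for 77.8% and 80.9%. Without members at an entry with a gene name these counts were 304, 257, 218, 169 and 83, and without those sharing both ends of an entry 202 groups were in both. Without members in a RefSeq gene there were 685 members in M, 570 in MR, 374 groups in MR alone and 189 in both. Without the 5 highest groups the members held 0.316% of the TPM in M and 0.420% in MR. Calls above 1 and below -1 numbered 49 and 53 at 5 TPM or more, 99 and 96 at a log2 threshold of 2, and 127 and 157 in FPKM. The FPKM values are smaller than the TPM values, while the pseudocount and the minimum level of 1 were kept. Otherwise the cause was not tested beyond the fewer loci these settings keep. The median log2 ratio of groups in both lay between -0.18, with MR scaled by the median ratio of 1.14 over gene loci, and 0.09. The removal of the level filter cannot change a call with this pseudocount. Other values were fixed in advance as well. These are the number of members under other matching rules, the share of TPM taken in FPKM, and the median log2 ratio under another call threshold. They are counted among the 88, so that this count is no measure of stability. The nearest gene of loci in M alone had a median log2 ratio of -0.36 within 5 kb and -0.08 from 5 to 50 kb, and for MR alone 0.53 and 0.41. The likeness to annotated transcripts was not run. The alternatives on both ends, RefSeq, the 5 highest groups, the listed coverage and the nearest gene were chosen after seeing the data. No paired analysis was possible because each condition has 1 library, and no replicate could be left out. About 1 read per base at the median limits what absence from a library means.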

Other observations

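Sequences not placed on a chromosome carried 15 groups, 12 in M alone, 0 in MR alone and 3 in both, with 527 TPM in M and 637 TPM in MR. Most of it came from a locus of 439 bases without strand on GL456382.1, with 428 TPM in M and 627 TPM in MR. On GL456211.1 a locus of 4636 bases had 30.5 TPM in M and 6.96 TPM in MR, and a locus of 514 bases had 30.2 TPM in M and no counterpart in MR.

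The longest locus spanned 114314 bases on chromosome 15, was found in MR alone at a coverage of exactly 1 and overlapped the lncRNAs Gm19859 and Gm32168. A locus of 85701 bases on chromosome 8 at the lncRNA A930035F09Rik had 1.64 TPM in M and 3.27 TPM in MR, and a locus of 74393 bases on chromosome 12, found in M alone, had 4.13 TPM. A locus of MR alone with 3.51 TPM, 16612 bases before Nrp1, also lay in A930035F09Rik, and Nrp1 had 73.7 TPM in M and 24.0 TPM in MR.

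A locus 455 bases from the hairpin of Mir7078 had 74.9 TPM in both libraries. The loci that hold the RefSeq starts of the lncRNAs Gm2848 and Gm39701 had 57.6 and 27.1 TPM in M and 28.0 and 29.7 TPM in MR. In 91.5% of the loci of M and 92.1% of those of MR the listed coverage lay within 5% of that expected from the FPKM.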
